A study of Mus musculus with 28 samples.

Results

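The genes described here are the mouse genes named Zfp followed by a number alone, which encode zinc finger proteins; Zfp36, an RNA-binding protein gene of another family, was left out. Of 12274 gene names present in both expression tables, 250 met this rule. There were 253 such names in vitro and 262 in co-culture, and the names found in 1 table only are not described. RNA was profiled in MC38, a mouse colon adenocarcinoma cell line, with 3' end libraries. In vitro, 2 libraries each came from untreated cells, from cells given TNF, IFNG or both for 6 hours, and from cells given the supernatant of a co-culture, for which no time is stated. In the other table, 3 libraries came from MC38 alone, and 3 each from MC38 kept for 6 hours with OT1 T cells to which isotype or anti-PD1 antibody was added. An isotype library has OT2 in its column name. OT1 T cells carry a transgenic receptor for an ovalbumin peptide; the labels used here do not say whether the MC38 cells made ovalbumin. They also do not say that replicates were separate cultures, so the spread between them may be technical.

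A C2H2 zinc finger is a short fold in which 2 cysteines and 2 histidines hold a zinc ion, and arrays of such fingers read DNA or RNA sequence. Many of these proteins also carry a KRAB box, which recruits the corepressor Trim28 and, through it, histone methylation by Setdb1, a machinery known for silencing retroelements. Others lack the box and serve as transcription activators, ribosome assembly factors, mitotic proteins or ubiquitin ligases. KRAB zinc finger genes lie in clusters that arose by repeated duplication.

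The family was first checked against its own sequence. Of the 250 genes, 249 had a coding sequence in the GENCODE M21 annotation of GRCm38, and Zfp419 was annotated as a pseudogene. At least 1 C2H2 finger was found in 245 of the 249 proteins, or 98.4%, against 3.92% of all 21877 coding genes. The 4 proteins without the pattern were Zfp330, Zfp365, Zfp503 and Zfp703. A KRAB A box was called in 130 members (52.2%) where at least 11 of 19 conserved residues were present, and in 1.49% of all coding genes. Members with the box had a median of 12 fingers (2 to 23), and the 119 without it a median of 7 (0 to 36).

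The following stretches of coding sequence show the feature that gives these genes their name. Each is the first finger of its protein, with the codons of the 4 zinc-binding residues in capitals, in 5′ to 3′ order on the coding strand of GRCm38. They were chosen to contrast a member with a long array, Zfp948, with 2 that have few fingers.
Zfp948: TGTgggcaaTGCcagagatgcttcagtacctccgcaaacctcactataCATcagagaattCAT
Zfp281: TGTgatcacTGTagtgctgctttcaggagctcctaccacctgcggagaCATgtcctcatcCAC
Zfp593: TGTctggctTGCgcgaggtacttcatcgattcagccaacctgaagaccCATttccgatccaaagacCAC
The finger of Zfp948 is the first of 15 and lies in 1 exon at chr17:21587193-21587255, that of Zfp281 is the first of 3 in 1 exon at chr1:136626063-136626125. The single finger of Zfp593 spans an intron, within chr4:134245033-134245317 on the minus strand. Zfp948 and Zfp281 have 3 residues between the zinc-binding histidines, and Zfp593 has 5.

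Promoter sequences were compared next, because the treatments act through known DNA elements. TNF, for one, activates NF-kB. RefSeq promoters, covering 250 bases before to 50 bases after a start site, were at hand for 203 of the 250 members (247 promoters). NF-kB consensus matches, on either strand, were in 8.1% of these promoters and in 8.46% of all 32851. The interferon response letters, GAAA, 2 further bases and GAAA, were in 1.62% and 3.44%. A further element, ACTACA followed after 1 base by TTCC, was added after the sequences had been read. It resembles the sequence bound by Zfp143, itself a member and an activator of many promoters. It was in 9.72% of member promoters, 15.9% of those with a KRAB box, and 1.02% of all promoters. Among promoters of members without the box the share was 3.33%. A match describes letters only and shows no binding.

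The promoters of Zfp58, Zfp595 and Zfp953 are shown because these neighbours carry the ACTACA element and are taken up again in the co-culture results. In RefSeq on GRCm38.p6 they lie at chr13:67500473-67500772 (minus strand), chr13:67332511-67332810 (minus strand) and chr13:67360523-67360822 (minus strand). Capitals mark the element, which matches on the reverse strand.
Zfp58: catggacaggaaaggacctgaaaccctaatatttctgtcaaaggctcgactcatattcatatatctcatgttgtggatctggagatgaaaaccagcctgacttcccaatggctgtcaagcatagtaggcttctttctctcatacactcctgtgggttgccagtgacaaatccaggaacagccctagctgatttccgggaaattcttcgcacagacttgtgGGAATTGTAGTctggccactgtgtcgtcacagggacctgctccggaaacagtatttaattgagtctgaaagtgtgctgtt
Zfp595: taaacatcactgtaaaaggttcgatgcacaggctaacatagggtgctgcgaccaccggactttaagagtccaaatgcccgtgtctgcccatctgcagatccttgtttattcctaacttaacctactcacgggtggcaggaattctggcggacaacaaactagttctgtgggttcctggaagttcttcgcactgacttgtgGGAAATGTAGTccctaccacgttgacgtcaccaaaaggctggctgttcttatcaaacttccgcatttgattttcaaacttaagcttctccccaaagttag
Zfp953: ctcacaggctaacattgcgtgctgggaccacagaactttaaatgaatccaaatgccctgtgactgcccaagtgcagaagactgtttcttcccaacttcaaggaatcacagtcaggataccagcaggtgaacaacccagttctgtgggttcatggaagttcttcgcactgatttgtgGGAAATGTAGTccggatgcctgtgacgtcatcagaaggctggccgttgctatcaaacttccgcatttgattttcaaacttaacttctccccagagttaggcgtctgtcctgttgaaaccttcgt
The promoter of Zfp622, which rose with both cytokines, lies at chr15:25984116-25984415 (plus strand). It is shown for its 2 NF-kB consensus matches on the reverse strand, in capitals.
Zfp622: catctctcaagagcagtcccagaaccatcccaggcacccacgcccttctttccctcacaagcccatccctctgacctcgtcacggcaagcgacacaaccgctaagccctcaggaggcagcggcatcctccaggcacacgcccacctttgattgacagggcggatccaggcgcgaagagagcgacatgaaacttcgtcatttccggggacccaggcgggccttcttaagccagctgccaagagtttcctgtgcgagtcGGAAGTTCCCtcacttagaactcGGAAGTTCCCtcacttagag

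Levels were low for most of the family. Libraries of this kind give 1 read per transcript end, so values can be set against each other without dividing by length. Over the 250 members, the median of the mean levels was 2.28 log2 CPM (counts scaled to a common library total) in vitro and 2.22 in co-culture, against 3.89 and 3.85 over all genes. Both in vitro and in co-culture, 51 of the 250 lay above the median of all genes. Members with a KRAB box had library medians of 1.47 to 1.89 in vitro and 1.58 to 2.03 in co-culture. Members without it had library medians of 2.86 to 3.28 and 2.93 to 3.32. These ranges did not overlap in either table.

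**Figure D1:**
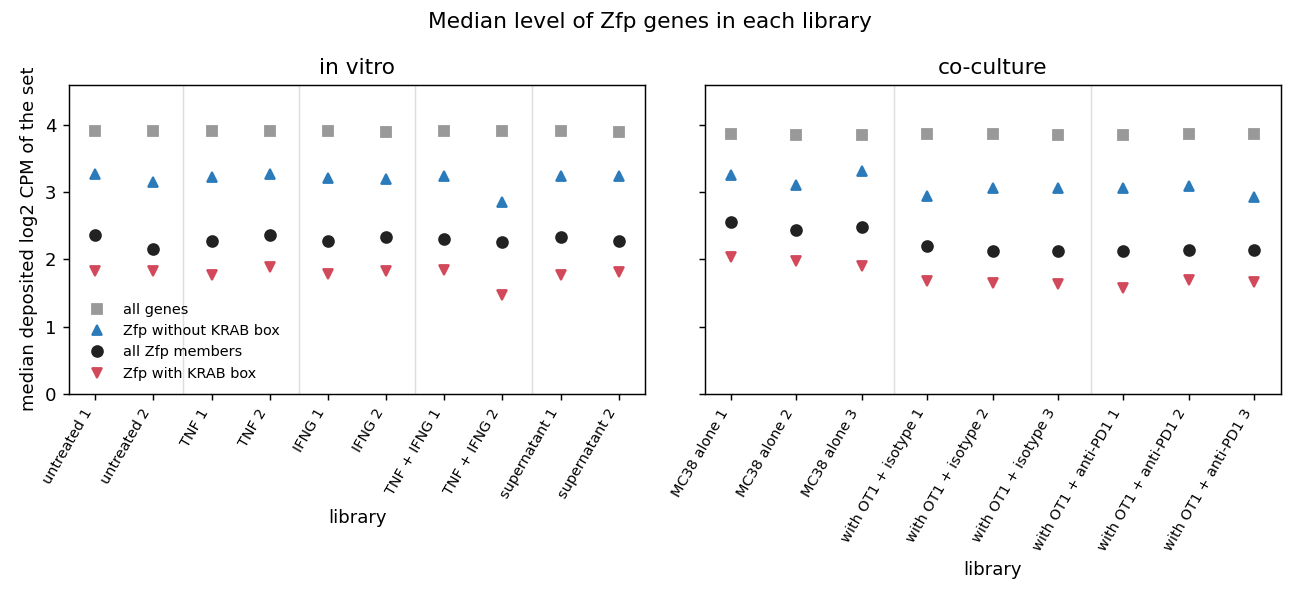
Median deposited log2 CPM (vertical axis) in each library (horizontal axis) for all genes, all 250 Zfp genes, and those with or without a KRAB A box; each symbol is 1 library. In co-culture the 3 MC38 alone libraries have medians of 2.44 to 2.56 over all Zfp genes and the 6 libraries with T cells 2.12 to 2.2, while the median of all genes stays near 3.87.

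The 5 highest members in vitro were Zfp91, Zfp207, Zfp106, Zfp706 and Zfp292. In co-culture Zfp91, Zfp207 and Zfp106 again led, followed by Zfp219 and Zfp706. Zfp91, a ubiquitin ligase of the alternative NF-kB pathway, had group means of 7.63 to 7.9 log2 CPM in vitro and 7.49 to 7.61 in co-culture. Zfp207, a kinetochore and spindle protein, had group means of 7.23 to 7.73 and 7.46 to 7.53. Zfp91 and Zfp207 lay within each other's spread in co-culture. The SD within groups was larger for the family than for all genes, with medians of 0.34 against 0.26 in vitro and 0.37 against 0.28 in co-culture. Members were also lower in level, and these medians do not set genes of like level against each other. At means under 2 log2 CPM in vitro, the median confidence interval reached 1.17 to either side of members' log2 changes and 1.25 for all genes. At 2 to 4 both reached 0.64, and at 4 and over both reached 0.43. In co-culture the pairs were 1.08 and 1.19, 0.59 and 0.56, and 0.38 and 0.35.

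The label of the cells was read against 6 listed markers of the line, all 6 present in co-culture and 3 in vitro. Values of Cdh1 and of the in vitro libraries are not given here. In co-culture the mesenchymal genes Vim and Cd44 were at 10.05 to 10.44 and 8.22 to 8.82, whereas the epithelial genes Epcam, Krt8 and Krt18 reached at most 2.36, 1.19 and 1.25. Of 8 known cytokine targets, 5 rose with TNF, 4 with IFNG, 7 with both cytokines, 4 with supernatant and 8 in each co-culture. Of all genes 0.259% rose with TNF, 0.354% with IFNG, 4.77% with both, 0.448% with supernatant, and 7.64% and 8.42% with isotype and anti-PD1 antibody. With supernatant Nfkbia, Nfkbie, Cxcl1 and Tnfaip3 did not pass.

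Depth and other cells bear on what follows. The steps between low values implied 3360000 reads in the second TNF + IFNG library and 6490000 to 11200000 in the other in vitro libraries. They implied 3730000 reads in the third library of MC38 alone and 5760000 to 11000000 in the other co-culture libraries. The same library of MC38 alone also held T cell transcripts: Ptprc, the leukocyte marker CD45, was at 3.15, against -2.58 and -1.63 in the other 2 and 1.92 to 3.24 with T cells. Ifng was at 1.85 there, below the 6.27 to 6.66 of the co-cultures. Summed over the 10 T cell markers in the table (of 12 listed), MC38 alone had 2.68 to 44.5 CPM and the co-cultures 134 to 165 CPM. The median over these markers was 1.85 log2 CPM in the third MC38 alone library, near the 1.91 to 2.33 of the co-cultures, and -2.58 and -2.14 in the other 2. In vitro only 1 of the 12 listed markers was present. It was at 2.34 log2 CPM in the shallow TNF + IFNG library, against -3.2 to 0.32 in the other in vitro libraries. Whether T cell RNA bears on the changes with both cytokines was not tested. The third anti-PD1 library carries conflicting labels: its title reads untreated MC38, and its description names OT1 and PD1. It was placed by its description. Its T cell markers summed to 157 CPM, within the range of the co-cultures, which does not tell the 2 antibodies apart. The counts of Zfp genes past the threshold were repeated without each of these libraries; those of other gene lists were not. Bulk RNA cannot tell fewer tumour cells apart from less RNA of a gene per tumour cell.

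TNF alone or IFNG alone moved no Zfp gene past the threshold (adjusted p under 0.05, limma with Benjamini-Hochberg adjustment over all genes). With TNF, 0 of 250 members passed, where 0.275% of all genes did; 7 were higher and 1 lower at an unadjusted p under 0.05. The smallest p-values belonged to Zfp667, Zfp622 and Zfp697. Zfp622, a factor of late ribosome assembly, was at 5.94 and 5.87 in the untreated libraries and 6.33 and 6.43 with TNF, a log2 difference of 0.48 ± 0.15 (SE; limma adjusted p = 0.615). The groups did not overlap, but the test was not passed.

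With IFNG, 0 of 250 members passed, where 0.354% of all genes did; 8 were higher and 6 lower at an unadjusted p under 0.05. Zfp330, a nucleolar protein, differed by 0.52 ± 0.16 on the log2 scale (limma adjusted p = 0.403). Zfp281, a DNA-binding regulator known from stem cells, differed by -0.62 ± 0.19 (limma adjusted p = 0.409). Zfp367 differed by -0.84 ± 0.28 (limma adjusted p = 0.43), and it did pass where only these 2 groups were fitted (limma adjusted p = 0.0249) or where libraries were weighted.

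Supernatant of a co-culture gave 0 of 250, where 0.448% of all genes passed; 4 members were higher and 4 lower at an unadjusted p under 0.05. The smallest p-values belonged to Zfp592, Zfp740 and Zfp839, with log2 differences of -0.47 ± 0.15, -0.41 ± 0.13 and 0.83 ± 0.29.

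With TNF and IFNG together, 12 of 250 members passed, where 9.02% of all genes did. Of the members 4 rose, where 4.77% of all genes did, and 8 fell, where 4.25% did. Over the 250 the median log2 change was 0.04, against 0.02 over all genes, and 48% were below 0 against 49%. The 12 were all members without a KRAB box. None of the 130 with the box passed, and their median interval was wider, at 0.9 on either side of the log2 change against 0.62 for members without it; 9 were higher and 11 lower at an unadjusted p under 0.05.

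Among those that fell, Zfp367, a nuclear zinc finger protein, was at 5.96 and 6.15 log2 CPM in untreated cells, 5.69 and 5.28 with TNF, and 5.23 and 5.21 with IFNG. It was at 4.15 and 4.57 with both cytokines, and 5.73 and 4.9 with supernatant. The 2 libraries with both cytokines were the lowest of the 10, a fall of 3.24-fold (log2 change -1.69 ± 0.28 SE, n = 2 per group, limma adjusted p = 0.0157). Zfp740 was at 6.31 and 6.28 untreated and at 5.5 and 5.35 with both cytokines, with the other 6 libraries between 5.78 and 6.21. Its log2 change of -0.87 ± 0.13 had the smallest p-value of the family here (limma adjusted p = 0.0127).

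Zfp281 was at 4.28 and 4.16 untreated, 3.78 and 3.75 with TNF, 3.59 and 3.61 with IFNG, and 3.22 and 3.33 with both. Its libraries with both cytokines lay below all others, and its log2 change was -0.95 ± 0.19 (limma adjusted p = 0.0281). Zfp410, an activator of the Chd4 gene, was at 4.44 and 4.52 untreated and at 3.57 and 2.34 with both cytokines. The fall of 1.53 on the log2 scale therefore joined 2 unlike libraries; the lower one is the shallow library, where Zfp410 sat on about the 17th value step from the bottom. Zfp276 fell by 1.34, Zfp346, which binds double-stranded RNA, by 0.93, and Zfp592 by 0.71. Zfp207 fell by 0.5, from 7.75 and 7.71 to 7.26 and 7.2.

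Among those that rose, Zfp609 went from 3.41 and 2.5 untreated to 4.16 and 4.65 with both cytokines, 2.73-fold higher (log2 change 1.45 ± 0.36, limma adjusted p = 0.043). Its untreated libraries differed from each other by more than those of any other riser named here. Zfp444 rose by 0.84 ± 0.19 and Zfp330 by 0.78 ± 0.16. Zfp622 was at 6.49 and 6.71 with both cytokines, above 5.94 and 5.87 untreated, and rose by 0.7 ± 0.15 (limma adjusted p = 0.0336). The promoter of Zfp622 is the one printed above with NF-kB matches. Of the 19 members with such a match it alone rose and 0 fell, where 4.77% and 4.25% of all genes did. With counts this small, no link between the match and the change was read from them. The median log2 change of these 19 members was -0.2, against 0.09 over the 203 members with a promoter entry.

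**Figure D2:**
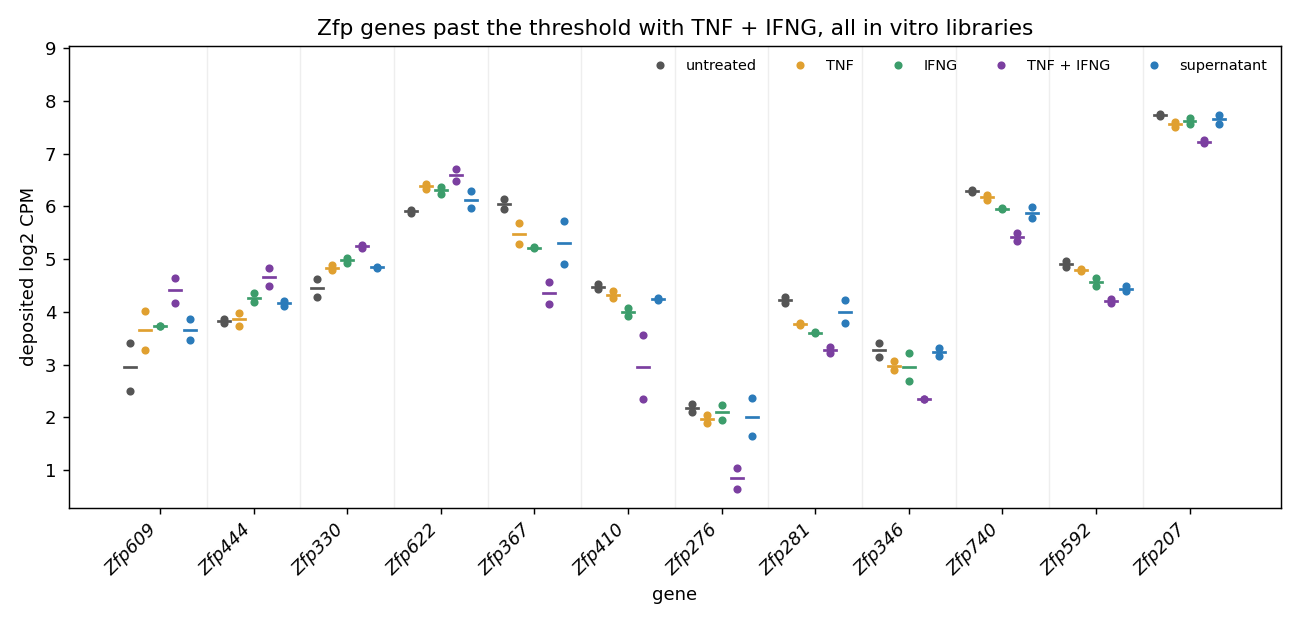
Deposited log2 CPM (vertical axis) of the 12 Zfp genes past the threshold with TNF + IFNG (horizontal axis) in all 10 in vitro libraries; points are libraries and bars are group means of 2. The 4 genes on the left rose and the other 8 fell, with TNF + IFNG at one end of the range for each; Zfp410 shows the widest gap between its 2 libraries, 3.57 and 2.34.

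These calls rest on few libraries. With the first or second untreated library left out, 0 members passed, where 0.954% or 0.694% of all genes did. The count was 2 without the first or second IFNG library, 4 without the first or second TNF library, and 19 without either supernatant library, where 2.07% to 4.35% of all genes passed in the fits without a cytokine library and 17% or 17.1% in those without a supernatant library. It was 4 when the shallow TNF + IFNG library was dropped and 18 when the other one was, where 2.48% and 8.42% of all genes passed. Zfp367 and Zfp740 kept their calls in all of these except without an untreated library. The interaction of both cytokines passed in 0 of 250 members, where 0.0157% of all genes passed (0.00786% in each direction); 0 were higher and 9 lower at an unadjusted p under 0.05. The 2 smallest p-values there belonged to Zfp960 and Zfp97, neighbours on chromosome 17. Of their last 500 transcript bases, measured in runs of 50, 86.3% and 88.9% are also held by transcripts of other genes. Their reads could therefore not be placed with certainty.

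In the co-culture with T cells plus isotype antibody, 15 of the 246 members tested passed, where 13.9% of all genes did. Of the members 4 rose, where 7.64% of all genes did, and 11 fell, where 6.22% did. The family as a whole was shifted down: the median log2 change was -0.25 against -0.06 over all genes, and 68.3% of members were below 0 against 54.9%. The median was -0.34 over 127 members with a KRAB box and -0.14 over 118 without it. With the anti-PD1 antibody, 18 of 246 passed, where 16.1% of all genes did. Of the members 4 rose, where 8.42% of all genes did, and 14 fell, where 7.71% did. Its median was -0.27 against -0.06, with 72.8% below 0 against 55%. Medians were -0.34 with the box and -0.21 without it. Both comparisons use the same 3 MC38 alone libraries, so they are not independent.

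**Figure D3:**
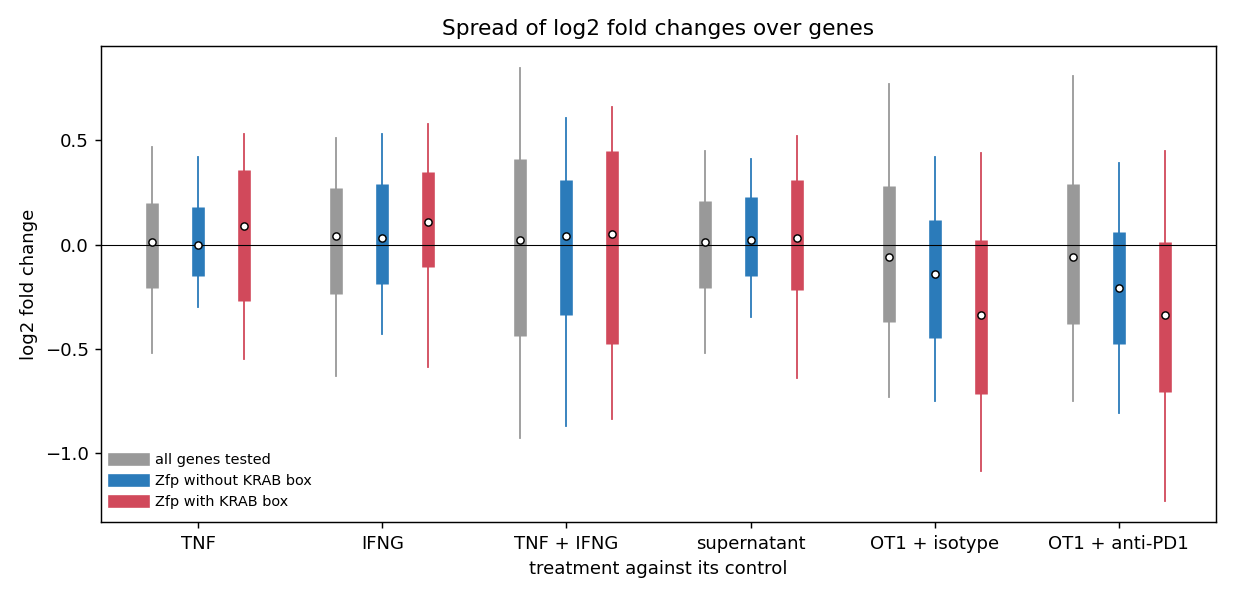
Log2 fold changes (vertical axis) for 6 treatments against their controls (horizontal axis): thick bars span the 25th to 75th percentile over genes, thin lines the 10th to 90th, and white points the median. The Zfp medians lie within 0.11 of 0 in the 4 in vitro comparisons, and at -0.34 for members with a KRAB box in both co-cultures.

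The shift was present at each level of expression. Of members with a mean under 2 log2 CPM, the median change with isotype antibody was -0.34, against -0.14 for all genes of that level. Between 2 and 4 it was -0.27 against -0.06, and at 4 and over -0.11 against -0.04. With anti-PD1 antibody the 3 pairs were -0.37 and -0.13, -0.25 and -0.05, and -0.17 and -0.04. The members' library medians were 2.56, 2.44 and 2.49 in MC38 alone, 2.2, 2.12 and 2.13 with isotype antibody, and 2.13, 2.14 and 2.14 with anti-PD1 antibody. They did not overlap. The third MC38 alone library, with its T cell transcripts, lay with its group; without it the median changes were -0.25 and -0.3. By their median the T cell markers placed that library with the co-cultures, and by their sum between the groups. Their part in the shift was not tested.

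The most clearly lowered member was Zfp703, a nuclear corepressor-associated protein with no C2H2 match whose human counterpart is amplified in breast cancer. It lies at chr8:26977325-26981461 on the plus strand. Its levels were 6.39, 6.34 and 6.24 in MC38 alone, 4.81, 4.53 and 4.89 with isotype antibody, and 5.13, 4.78 and 4.6 with anti-PD1 antibody. All co-culture libraries were more than 1 log2 unit below all MC38 alone libraries. The fall was 2.98-fold with isotype antibody (log2 change -1.58 ± 0.16 SE, n = 3 per group, limma adjusted p = 0.000102) and 2.8-fold with anti-PD1 antibody (-1.49 ± 0.16, limma adjusted p = 0.000164). It passed in both comparisons under every alternative run. With TNF and IFNG in vitro the log2 difference was -0.31 ± 0.18 (limma adjusted p = 0.282); the tables were normalized apart and the difference between them was not tested.

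Zfp638, an RNA- and DNA-binding protein known to help the HUSH complex silence retroviral DNA, was at 4.86, 5.3 and 5.06 in MC38 alone, 4.36, 4.59 and 4.32 with isotype antibody, and 4.06, 4.39 and 4.32 with anti-PD1 antibody. The groups with T cells lay wholly below, and it fell by 0.65 and 0.82 on the log2 scale. Other widely expressed members without a KRAB box fell in both co-cultures: Zfp24 by 0.69 and 0.7, Zfp292 by 0.64 and 0.8, and Zfp706 by 0.47 and 0.48. Of the 3' end of Zfp706, 38.6% is also held by transcripts of other genes, with Zfp575 holding the most. Some Zfp706 reads may therefore be placed uncertainly. Zfp532, a partner of Zfp592 in a chromatin complex, fell by 1.25 with isotype antibody, a call lost in 6 of 17 alternatives. It was at 1.93, 1.52 and 2.56 in MC38 alone and 0.88, 0.6 and 0.78 with isotype antibody, but at 1.92, 1.7 and 1.52 with anti-PD1 antibody. The direct comparison of the 2 antibodies gave 0.96 ± 0.32 (limma adjusted p = 1), so a difference between them was not established.

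Members with a KRAB box that fell were mostly near the lower end of the range. Zfp995 was at 0.97, 0.69 and 1.34 in MC38 alone and -0.34, -1.63 and -1.12 with isotype antibody, about 15, 12 and 9 value steps against 8, 3 and 4. It fell by 2.03 ± 0.52 (limma adjusted p = 0.0287). The call was lost in 4 of the 13 alternatives in which it was tested, among them those without isotype library 2 or 3. Zfp947 fell by 1.98 ± 0.56 with anti-PD1 antibody, from 1.17, 0.55 and 1.95 to -1.03, -1.03 and -0.21, and its call was lost in 9 of 16 alternatives. Zfp995 and Zfp947 lay under the filter in all libraries of the group where they were low, and met it through those where they were high. Their calls therefore support nothing on their own. Zfp248 fell by 1.57 and 1.36 (calls lost in 4 and 8 of 17 alternatives), Zfp61 by 0.91 and 1.23, and, without a called box, Zfp956 fell by 1.51 and 1.61. Zfp157 fell by 1.27 with anti-PD1 antibody. Zfp809, known to silence murine leukaemia proviruses, had group means of 2.38 ± 0.79, 1.95 ± 0.32 and 1.98 ± 0.09 (SD, n = 3) and did not pass.

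The clearest riser was Zfp948, a KRAB member with 15 fingers. It was at 2.83, 3.01 and 3.36 in MC38 alone, 3.89, 4.01 and 3.83 with isotype antibody, and 4.23, 3.96 and 4.17 with anti-PD1 antibody. Every co-culture library exceeded every MC38 alone library. It rose 1.79-fold (log2 change 0.84 ± 0.18, limma adjusted p = 0.0108) and 2.08-fold (1.05 ± 0.18, limma adjusted p = 0.003), and passed under every alternative run. Zfp593, a small nucleolar protein of large ribosomal subunit assembly, was at 5.53, 5.18 and 5.53 in MC38 alone and 5.97 to 6.19 in the co-cultures. It rose by 0.61 ± 0.13 and 0.68 ± 0.13. The first of these was lost without the third isotype library (limma adjusted p = 0.0542). Zfp219 rose by 0.55 ± 0.14 with isotype antibody.

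Zfp296, a transcription factor known from pluripotent cells, was at -0.81, -0.21 and -0.34 in MC38 alone, about 4, 6 and 1 value steps from the bottom. It was at 1.07, 1.57 and 1.47 with isotype antibody and 0.43, 1.33 and 1.01 with anti-PD1 antibody. It rose by 1.83 ± 0.4 and 1.38 ± 0.4. It lay under the filter in all 3 MC38 alone libraries and was tested only because the co-culture libraries lay above it, so its call supports nothing on its own. The call was lost in 2 of 17 alternatives with isotype antibody and in 9 of 17 with anti-PD1 antibody. With TNF and IFNG in vitro its log2 difference was -1.29 ± 0.94 and did not pass. The genes whose levels followed Zfp296 most closely over the 9 libraries were Nab1 (r = 0.966), Gm22748 (0.96) and Lcp2 (0.958); Lcp2 encodes an adaptor of T cell receptor signalling. Over the 10 in vitro libraries, Zfp609 was followed by Spred3 (0.986), Ankrd26 (0.985) and Strada (0.978). These are the closest of all genes in a table, with libraries that share their treatments, and carry no test.

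**Figure D4:**
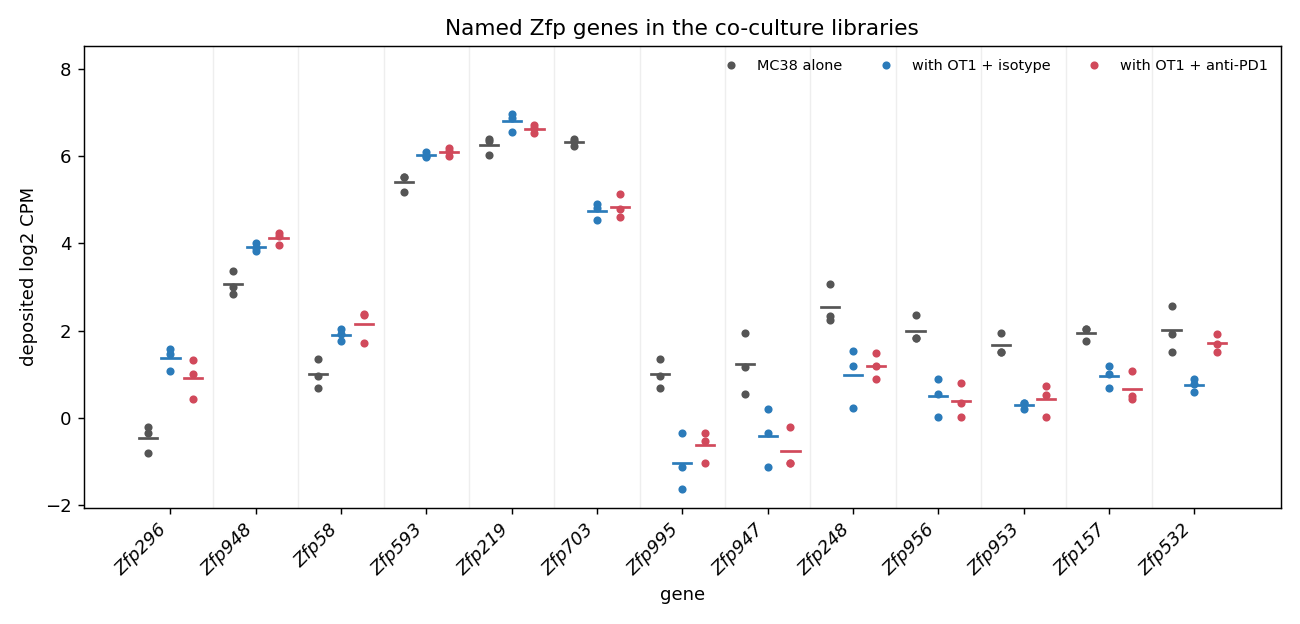
Deposited log2 CPM (vertical axis) of 13 named Zfp genes (horizontal axis) in the 9 co-culture libraries; points are libraries and bars are group means of 3. Zfp703 drops from 6.24 or more to 5.13 or less, Zfp948 rises from 3.36 or less to 3.83 or more, and Zfp532 is low in the isotype group alone among these libraries.

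Neighbouring members did not all move alike. On chromosome 13, 10 members, all with a KRAB box, lie between 67312998 and 67827002. Of these, 7 were below 0 in each co-culture, with medians of -0.73 and -0.79. Zfp953 was at 1.52, 1.52 and 1.95 in MC38 alone, 0.2, 0.35 and 0.35 with isotype antibody, and 0.73, 0.52 and 0.03 with anti-PD1 antibody. It fell by 1.36 ± 0.35 and 1.23 ± 0.35, but the call was lost in 7 of 17 alternatives with isotype antibody and in 11 of 17 with anti-PD1 antibody, in the latter whichever of the 9 libraries was left out. Zfp58, in the same run of genes, was at 0.97, 0.69 and 1.34, then 1.92, 2.04 and 1.76, then 1.71, 2.35 and 2.37. Its log2 difference was 0.91 ± 0.3 with isotype antibody (limma adjusted p = 0.0731), and it rose by 1.14 ± 0.3 with anti-PD1 antibody (limma adjusted p = 0.0273), a call lost in 6 of 17 alternatives. Zfp595 differed by -1.04 ± 0.52 and -1.21 ± 0.52 and did not pass. All 3 have the promoter element printed above. Over the 24 members with the ACTACA element, the median changes were -0.31 and -0.3, against -0.23 and -0.25 over the 200 tested members with a promoter entry.

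On chromosome 17, 20 members lie between 21008903 and 23599487, 19 of them with a KRAB box. Zfp948, which rose, is in this run. So are Zfp947 and Zfp995, but they met the filter through the libraries where they were high, so their calls support nothing about neighbours. Of the 19 tested members of the run, 15 were below 0 with isotype antibody and 13 with anti-PD1 antibody, with medians of -0.34 and -0.46. With TNF and IFNG, 9 of its 20 members were below 0 and the median was 0.16.

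The 2 antibodies were not told apart by any member. Of 246 members 0 passed, as did 0% of all genes, with 2 members higher and 4 lower at an unadjusted p under 0.05. The smallest p-values were those of Zfp532, Zfp326 and Zfp568; Zfp326 differed by -0.39 ± 0.15 and Zfp568 by -0.66 ± 0.28. For a member of median precision the 95% interval reached 0.69 to either side of the log2 difference.

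The co-culture counts also turned on single libraries. Without the third MC38 alone library, 28 members passed with isotype antibody (6 higher, 22 lower), where 17.7% of all genes did (9.52% higher, 8.19% lower). With anti-PD1 antibody 32 passed (6 higher, 26 lower), where 20.5% of all genes did (10.5% higher, 9.93% lower). Of the original calls, 13 remained in each. Without isotype library 1, 2 or 3, the isotype count was 9, 9 or 3, where 8.51%, 9.79% or 7.98% of all genes passed. Without anti-PD1 library 1, 2 or 3, the anti-PD1 count was 10, 8 or 10, where 10.5%, 9.73% or 9.75% of all genes passed; the third of these is the library with conflicting labels.

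Members of well-known function that passed in no comparison are given by their levels. Zfp598, the ubiquitin ligase that marks collided ribosomes, had group means of 4.74 to 4.97 log2 CPM in vitro and 4.8 to 5.22 in co-culture. Zfp148, a GC-box binding factor, had group means of 5.9 to 6.22 and 5.69 to 6.04, and Zfp110, which interacts with the neurotrophin receptor, 2.89 to 3.44 and 3.29 to 3.58. Zfp217, whose human counterpart is an oncogene, had group means of 2.61 to 3.34 and 2.8 to 3.35. Zfp143 was at 4.17 and 4.37 untreated and 3.54 and 3.2 with both cytokines, a log2 difference of -0.9 ± 0.25 that missed the threshold (limma adjusted p = 0.057). Zfp369 had means of 2.71 ± 0.31 in MC38 alone, 2.05 ± 0.46 with isotype antibody and 2.09 ± 0.19 with anti-PD1 antibody (SD, n = 3).

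Changes in the 2 tables were set side by side, since they share no library. Of the 12 members that passed with TNF and IFNG, 0 passed in either co-culture, where 15 and 18 of 246 members did. Over the 12165 genes tested in both tables, 365 passed both with TNF and IFNG and with isotype antibody, 32.2% of the 1135 and 22% of the 1656 that passed in each. With so few members past the threshold, no difference from all genes was read from the 0. Over 246 members, Pearson's r between the change with TNF + IFNG and that with isotype co-culture was 0.05, and 51.6% had the same sign. Over 12165 genes these were 0.31 and 55.1%. By rank (Spearman's rho) the gap was smaller, at 0.09 over members and 0.16 over all genes. Between TNF + IFNG and anti-PD1 co-culture, r was 0.02 over members and 0.22 over all genes, and rho was 0.05 and 0.04. No difference between members and all genes was read from these. Genes are not independent replicates, so these values are descriptions only.

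**Figure D5:**
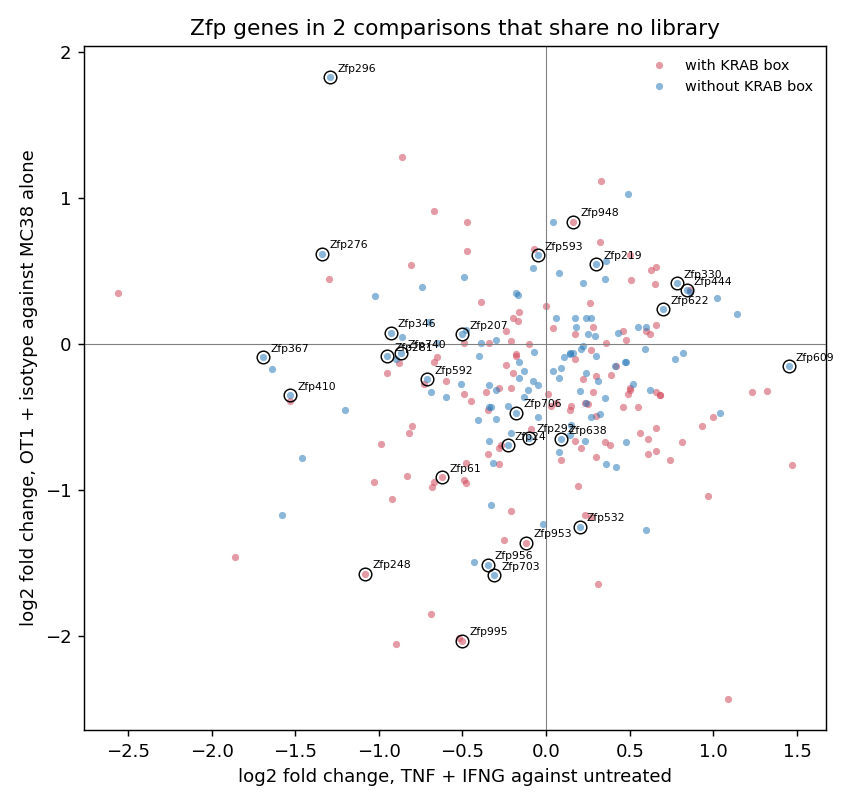
Log2 fold change of each Zfp gene with TNF + IFNG against untreated (horizontal axis) and in co-culture with isotype antibody against MC38 alone (vertical axis), coloured by KRAB box; circled, named genes passed the threshold in 1 of the 2. No circled gene passed in both, and the cloud sits below 0 on the vertical axis, where the median is -0.25, and near 0 on the horizontal, where it is 0.04.

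Genes that work with KRAB zinc finger proteins were read from a list of 30 corepressor genes, of which 29 were tested. With isotype antibody 1 rose and 5 fell, where 7.64% and 6.22% of all genes did. With anti-PD1 antibody 1 rose and 3 fell, where 8.42% and 7.71% did. With counts this small, nothing particular to the list was read from them. Trim28, the scaffold that binds the KRAB box, fell by 0.38 ± 0.11 and 0.49 ± 0.11. Atf7ip, the partner of Setdb1, fell by 0.82 ± 0.17 and 1.02 ± 0.17, and Mphosph8, a subunit of the HUSH complex, by 0.53 ± 0.14 and 0.66 ± 0.14. Mbd2, which binds methylated DNA, rose by 0.98 and 1.11. The list's median was -0.2 and -0.18, against -0.06 over all genes. Of its genes 75.9% and 79.3% were below 0, against 54.9% and 55% of all genes. With TNF and IFNG, 2 of the 29 rose (Chd3, Gatad2b) and 2 fell (Rbbp7, Smarcad1), where 4.77% and 4.25% of all genes did.

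Other zinc finger genes gave a mixed picture, and the downward shift in co-culture was not particular to the Zfp genes. Of 47 tested genes named Zbtb, Zkscan or Zscan, 4 rose and 5 fell with isotype antibody, and 4 rose and 6 fell with anti-PD1 antibody, with medians of -0.22 and -0.19. These counts lay near the shares of all genes just given, 7.64% and 6.22%, and 8.42% and 7.71%. Zbtb32, a repressor found in activated lymphocytes, rose by 3.89 ± 0.38, and Zbtb46 by 2.03 ± 0.29. Of 12 Klf genes, 3 rose and 1 fell in each co-culture, against the same shares of all genes. With isotype antibody Klf4 and Klf6 rose by 1.27 and 1.47. Of the Zbtb, Zkscan and Zscan genes, 72.3% and 68.1% were below 0 with isotype and anti-PD1 antibody, against 54.9% and 55% of all genes. Of the Klf genes, 33.3% and 25% were.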

How the data were processed

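The 19 MC38 libraries with a column in 1 of 2 expression tables were used; the 9 other samples, of OT1 T cells, were not analysed here, and 0 sample columns were left unused. Per the labels' protocols, RNA was made into QuantSeq 3' mRNA libraries. The submitters' processing notes list limma, Subread, featureCounts, HISAT2, cutadapt 1.7 and FastQC with builds mm10 and GRCm38. Use of the strand in counting is not stated in these notes. The deposited values are log2 CPM, a unit read from the values, since 2 to their power summed to 993229 to 998505 per library. Each table was normalized by the authors on its own, so tests were made within a table.

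Each table was fitted as a whole in limma 3.58.1 (R 4.3.3), with moderated variances and an intensity trend. Genes entered the tests with log2 values of 0 or more in 2 (in vitro) or 3 (co-culture) libraries; Zfp40, Zfp239, Zfp968 and Zfp975 were not tested in co-culture. P-values are 2-sided and were adjusted over all 12720 or 12707 genes tested, with a threshold of 0.05. On simulated data, changes of 1 and 2 on the log2 scale were recovered in 68% and 95% of changed genes for TNF + IFNG, over 12518 genes. For isotype co-culture these were 73% and 94%, over 12454 genes. There were 7 and 11 wrong calls. Each simulated gene had exactly the spread typical of its level, and changed genes were drawn from all genes with a mean level above 0. In the real data spread also differs between genes of like level. This was not simulated, so the shares may not hold for real genes in general. Members have lower levels and, where levels are not matched, wider spread, so these shares do not give the recovery for Zfp genes. Depth was implied from the steps between low values, because raw counts were not used here.

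Fingers and KRAB boxes were found by pattern in proteins translated from GENCODE M21, and 3' ends shared between genes by runs of 50 bases within the last 500. Of 249 members, 17 shared over 20% of that stretch. Named genes were, per comparison, the up to 6 with the largest change past the threshold in each direction, the 3 smallest p-values where none passed, the 5 highest levels, and a list of members of known role; Zfp24, Zfp61, Zfp207, Zfp292, Zfp592 and Zfp595 were named where they passed or lay beside a named gene, after their values were seen. The members and lists were chosen with earlier results of these data known. Alternatives changed the filter, the trend, the groups fitted, library weights, a replicate block, a pseudocount of 1 CPM, centring, the number of KRAB residues, and left out each library in turn.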

Additional observations from a re-analysis of the deposited data

How the results depend on the processing

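Counts of Zfp genes past the threshold moved by more than 1.5 times in these cases. With IFNG alone, 1 passed instead of 0 where only the 2 groups were fitted or libraries were weighted. With TNF and IFNG, 12 became 7 without the intensity trend, 1 with only the groups compared (238 members tested), 7 with library weights and 6 with the replicate block, and 0 to 19 when 1 library was left out. With isotype antibody, 15 became 8 with only the groups compared and 28 with library weights, and 3 to 28 when 1 library was left out. With anti-PD1 antibody, 18 became 10 and 29, and 8 to 32. The cause of these moves was not tested. The filter, the pseudocount and the centring left these counts within 1.5 times. Replicate numbers gave no clear sign of pairing. Same-numbered libraries of different groups correlated at -0.4 to 0.12 in vitro and -0.08 to 0.13 in co-culture. Those with unlike numbers correlated at -0.12 to 0.4 and -0.16 to 0.15. With 2 libraries per group in vitro, each value for unlike numbers mirrors one for like numbers, so this check could not exclude pairing there. With the replicate block, 12 members passed in each co-culture comparison. Of 781 repeats of a named gene's test, 616 kept their side of the threshold, 163 lost the call, 2 gained it and 0 changed sign while called. The 781 include genes named as not past the threshold, which had no call to lose. The 616 therefore do not measure how firm the calls were, and the share of calls lost was higher than 163 of 781. A KRAB box was called in 121 members at 15 or more of the 19 residues and in 18 where all were required; the first threshold was chosen after seeing the data. For a member with a KRAB box the 95% interval typically (median) reached 0.9 to either side of the log2 change in vitro and 0.82 in co-culture. The parts of depth and of spread between libraries in this width were not tested.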
